A study of Mus musculus with 8 samples.

Results

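The comparison described here is culture time alone: mouse peritoneal macrophages kept for 24 h in plain medium against the same cells kept for 6 h. Its members are the 4 of the study's 8 arrays whose titles name the basal condition, 2 at 6 h and 2 at 24 h, and they were chosen by those titles. The study asked how macrophages respond to histidine-rich glycoprotein (HRG), a plasma protein. All cells came from the peritoneal lavage of 10 wild-type C57/Bl6 mice, were pooled, and rested overnight in RPMI with 5% FCS. The Basal 6 h and Basal 24 h groups then stayed untreated in that medium for 6 h or 24 h, and the HRG 6 h and HRG 24 h groups received 1 µg/ml of recombinant HRG for the same times. Since the cells were pooled and nothing says that duplicates were separate cultures, the p-values measure the spread between these duplicates, which may be technical. The age of the mice is not given in the sources used here.

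Resident macrophages of the peritoneal cavity live in a fluid that holds them in place by retinoic acid and local growth factors. GATA6 is the transcription factor that marks them there. Lavage, adhesion to plastic and serum remove those cues and bring new ones, and macrophages can answer such handling with cytokine, interferon and stress programmes. Here the cells had rested overnight before the 6 h interval began, and the part of handling in the changes below was not tested. In culture they also depend on glucose from the medium, on the sterols that serum supplies and on the oxygen that reaches the bottom of the dish. The labelled cell type was checked against its defining markers, which were bright on all 4 arrays: Adgre1, which encodes F4/80, read 13.47 and 13.38 at 6 h and 13.46 and 13.41 at 24 h on the RMA log2 scale, on which 1 unit is 2-fold. Csf1r, the receptor for the macrophage growth factor, read 13.08 and 13.09 at 6 h and 13.14 and 13.27 at 24 h.

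Expression was measured for 19938 genes, each by its brightest probe set with a single gene symbol. The duplicates correlated at 0.996 (6 h) and 0.9968 (24 h), and arrays of the different times at 0.9894 to 0.9921. Basal 6 h replicate 1 had the lowest lower quartile of signal of the 8 arrays (5.846) and Basal 24 h replicate 1 the highest (6.001). Differences are Basal 24 h minus Basal 6 h in log2 units, each with its standard error (SE) from a limma fit over all 8 arrays and a p adjusted over all genes by the Benjamini-Hochberg method. A gene is said to have risen or fallen where that adjusted p was under 0.05.

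Between 6 and 24 h, 758 genes rose (3.8% of those tested) and 1093 fell (5.48%). Of these, 70 rose and 154 fell by at least 2-fold, and 2 rose and 8 fell by at least 4-fold. The median difference over all genes was 0.028, and both 24 h arrays lay above both 6 h arrays for 4683 genes (23.5%) and below them for 4330 (21.7%). The number that rose was 373 without Basal 24 h replicate 2. The number that fell was 600 without Basal 6 h replicate 1 and 717 without Basal 24 h replicate 1. In these bulk RNA samples, fewer cells of a type and less RNA per cell cannot be told apart.

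The largest fall was that of Ch25h, the enzyme that makes 25-hydroxycholesterol, an antiviral oxysterol. It read 10.89 and 10.75 at 6 h and 8.05 and 7.83 at 24 h, a 7.35-fold fall (difference -2.88 ± 0.13 SE, adjusted p = 1.3e-06, limma). Next came Rsad2 (viperin), Ifi206, Tpbpa, Fam171b, the matrix protease Mmp3 and Ifit3, at -2.35 to -2.09. Tpbpa is best known from the placental trophoblast. It read 9.88 and 9.48 at 6 h and 7.60 and 7.24 at 24 h. Ifi213, AA467197, Ifit3b, Cmpk2, the dicarboxylate transporter Slc13a3, the niacin receptor Hcar2, the activation marker Cd69 and Mx1 completed the 15 largest falls, at -2.01 to -1.85.

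The largest rise was that of Ephx1, the microsomal epoxide hydrolase. It read 8.44 and 8.11 at 6 h and 10.54 and 10.90 at 24 h, a 5.44-fold rise (2.44 ± 0.14, adjusted p = 1.96e-06, limma). Abca9, a lipid transporter of the ABC family, rose 4.24-fold, from 7.50 and 7.27 to 9.55 and 9.38. Nqo1, the quinone reductase, rose 3.98-fold. Clec4n, the fungal receptor dectin-2, rose 3.82-fold. Below them came Aldoc, Fam13a, the iron exporter Slc40a1, Alox5, the transcription factor Egr2, Pdk1, the receptor Cd300lb, Asb4, the acetate-activating enzyme Acss2, the sorting receptor Sort1 and Ankrd37, at 1.88 to 1.52. Of these 30 genes, Slc40a1 had the widest duplicates: 7.82 and 9.17 at 24 h, after 7.07 and 6.68 at 6 h (1.62 ± 0.30, adjusted p = 0.00493, limma).

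**Figure D1:**
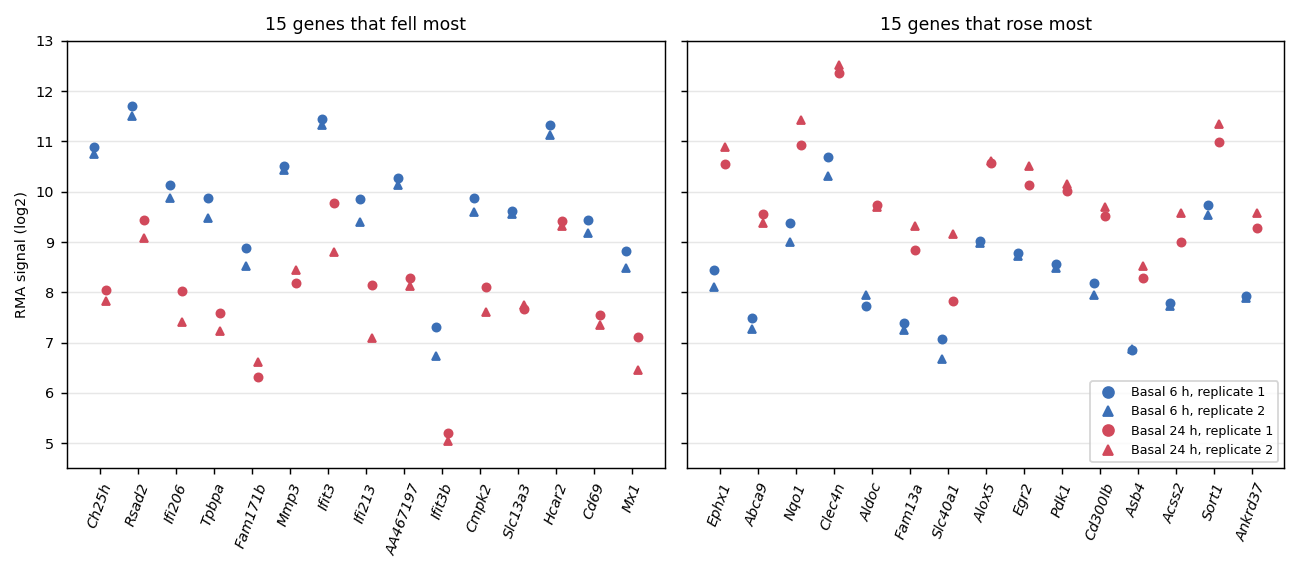
RMA signal (log2) of the 15 genes that fell most (left) and the 15 that rose most (right) on each basal array; blue is 6 h, red is 24 h, circles are replicate 1 and triangles replicate 2. For each gene both red points lie on the same side of both blue points, which largely follows from choosing the genes by this difference. Slc40a1 (7.82 and 9.17) and Ifi213 (8.15 and 7.10) have the widest spread at 24 h.

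The interferon-stimulated genes were the list with the largest share of members that fell. Type I interferon, made and sensed by macrophages themselves, switches on these antiviral genes through transcription factors that bind a promoter sequence called the interferon-stimulated response element. Of 30 measured members, 24 fell and 0 rose, the median difference was -0.773 against 0.028 for all genes, and 12 fell at least 2-fold. Rsad2, which blocks viral budding and replication, read 11.71 and 11.50 at 6 h and 9.44 and 9.07 at 24 h (5.10-fold lower). Ifit3, a partner of the RNA-binding IFIT proteins, read 11.44 and 11.33 at 6 h and 9.77 and 8.81 at 24 h, and its 24 h duplicates differed by more than those of Rsad2. Cmpk2, a nucleotide kinase encoded beside Rsad2 (-1.89), the GTPases Mx1 (-1.85) and Gbp5 (-1.78), Ifit2 (-1.76) and Ifit1 (-1.60) fell as well.

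Among regulators of the pathway, Irf7, the factor that amplifies interferon production, fell by 0.70 (13.11 and 12.99 to 12.54 and 12.16, adjusted p = 0.00351, limma). Irf9 fell by 0.37 (adjusted p = 0.026, limma), and Stat2 gave -0.35 and did not pass. Ifnb1, which encodes interferon beta and was listed with the cytokines, gave 0.18 and did not pass. The mean of no interferon-stimulated member was higher at 24 h. For 28 of the 30 both 24 h arrays lay below both 6 h arrays, against 21.7% of all genes. Within the 24 h group, replicate 1 was higher than replicate 2 by a median of 0.396 over the list. Without replicate 1 the median difference was -0.944, without replicate 2 it was -0.603, and the number that fell was between 17 and 27 with any single array left out.

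The proximal promoters of several of these genes hold the letters of that element. The following stretches are from RefSeq, build GRCm38.p6, on the gene's own strand, and show the promoters of 4 strongly falling members; capitals mark matches to GAAANNGAA or its reverse complement, a core of the response element in which N is any base.
Rsad2, chr12:26456538-26456596, minus strand: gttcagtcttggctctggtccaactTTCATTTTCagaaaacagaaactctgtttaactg
Ifit1, chr19:34640780-34640838, plus strand: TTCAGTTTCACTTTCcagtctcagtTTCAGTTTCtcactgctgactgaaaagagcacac
Ifit3, chr19:34583402-34583460, plus strand: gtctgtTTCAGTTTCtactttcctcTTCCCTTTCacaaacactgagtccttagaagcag
Gbp5, chr3:142496745-142496803, plus strand: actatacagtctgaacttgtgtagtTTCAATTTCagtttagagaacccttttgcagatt
The Ifit1 stretch holds 3 matches, of which 2 overlap. All matches printed are on the strand opposite to the gene, and the one nearest the start ends 75 bases before it, in Ifit1. Among the 19 falling members with a promoter in the table, 10 (52.6%) held the motif on either strand within 250 bases before and 50 after the start. Over all measured members it was 14 of 23 (60.9%), so the 4 members with a promoter that did not pass held it too. The share was 9.2% over all 15563 tested genes with a promoter, 14% over the 822 genes that fell and had one, and 8.87% over the 609 that rose and had one. A match describes the letters only; binding was not measured.

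NF-kB is the factor that switches on cytokine genes after microbial or adhesion signals. Of 23 measured genes of its subunits, inhibitors and targets, 21 lay lower at 24 h, at a median of -0.354. Of these 23, 11 fell (47.8%) and 1 rose (4.35%), against 5.48% and 3.8% of all genes. The count of falls was 5 without Basal 6 h replicate 1 and 5 without Basal 24 h replicate 1. Cd40, the co-stimulatory receptor, read 11.68 and 11.49 at 6 h and 9.83 and 10.16 at 24 h, a 3.01-fold fall (adjusted p = 2.26e-05, limma). Cd83 (-1.37) and the adhesion molecule Vcam1 (-1.14) fell too. The subunit genes Rel (-0.44), Nfkb2 (-0.38) and Relb (-0.35) fell, whereas Rela (-0.33) and the inhibitor Nfkbia (-0.17) did not pass. The member that rose was Tnip3, an inhibitor of the pathway (0.65 ± 0.14, adjusted p = 0.0116, limma).

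Among 24 inflammatory cytokines and their antagonists, 7 fell (29.2%) and 1 rose (4.17%), against 5.48% and 3.8% of all genes. Il6 read 12.16 and 11.79 at 6 h and 10.72 and 10.87 at 24 h, a 2.27-fold fall (-1.18 ± 0.13, adjusted p = 0.000187, limma). Il10, the cytokine that restrains inflammation (-1.31), Il12b (-1.24), the growth factors Csf1 (-1.20) and Csf2 (-1.20), Il23a (-0.87) and the interleukin 1 receptor antagonist Il1rn (-0.77) were the others. Both pro- and anti-inflammatory members were thus among those that fell. Tnf read 11.40 and 11.06 at 6 h and 10.59 and 10.99 at 24 h (-0.44, adjusted p = 0.0908, limma) and did not pass. Il1b, at 12.71 and 12.48 then 12.69 and 12.83, did not pass. The member that rose was Il1f9, which encodes interleukin 36 gamma: 8.43 and 8.11 at 6 h and 9.40 and 9.78 at 24 h (1.32 ± 0.14).

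Chemokines moved in both directions. Of 27 measured, 8 fell and 4 rose; without Basal 6 h replicate 1, 5 fell. The interferon-inducible Cxcl10 fell most, from 9.22 and 8.79 to 7.28 and 7.41 (3.15-fold). The monocyte attractants Ccl7 (-1.12) and Ccl2 (-0.62) fell, as did Ccl5 (-0.90), Ccl4 (-0.76) and Cxcl1 (-0.69). Ccl22 (-0.64) and Ccl17 (-0.53), which attract T cells, completed the falls. Those that rose were Ccl6, Ppbp, Ccl24 and Ccl9, at 1.45, 1.17, 0.90 and 0.74. Ccl6 had wide duplicates at 24 h (11.17 and 10.28, after 9.31 and 9.24). Of their 21 receptors, 5 fell and 2 rose, led by Ccr7 (-1.16), the receptor that guides cells to lymph nodes, and by Cmklr1 (0.60), the chemerin receptor; 2 fell without Basal 6 h replicate 1 or without Basal 24 h replicate 2, and 3 without Basal 24 h replicate 1. Without Basal 6 h replicate 2 or Basal 24 h replicate 2, 1 receptor gene rose.

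Of 36 early-response transcription factors and MAPK feedback genes, 9 fell and 2 rose. The falls were 5 without Basal 6 h replicate 1 and 5 without Basal 24 h replicate 1. Fos (-0.12) and Egr1 (-0.15), induced within minutes of stimulation, did not pass. Rgs1, a regulator of G protein signalling (-1.11), and the orphan receptor gene Nr4a3 (-1.04) led the falls. Egr2, which takes part in macrophage differentiation, went the other way, from 8.78 and 8.72 to 10.14 and 10.51. Among 28 Toll-like receptors, adaptors and inflammasome genes, 6 rose and 5 fell. The receptors that rose were those for microbial RNA in endosomes, Tlr7 (0.67), Tlr8 (0.79) and Tlr13 (0.61), and Tlr4 for lipopolysaccharide (0.56) with its partner Cd14 (0.42); the inflammasome sensor Nlrc4 (0.52) also rose. Tlr1 (-0.59), Tlr9 (-0.60), Myd88 (-0.34), Ticam2 (-0.75) and Casp4 (-0.87) fell. Without Basal 6 h replicate 2, 3 of the list rose.

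The ATF4 programme formed a further large block of falls. ATF4 is the factor translated when amino acids run short or the endoplasmic reticulum is stressed, and it induces amino acid transporters, synthetic enzymes, tRNA synthetases and the apoptosis regulator CHOP. Of 40 measured members, 26 fell and 0 rose, with a median of -0.578, and 9 fell at least 2-fold. With any single array left out, between 24 and 27 fell. The transporter gene Slc7a5 led them, at 11.63 and 11.63 at 6 h and 9.63 and 9.96 at 24 h (3.57-fold lower, adjusted p = 1.44e-05, limma). Ddit3, which encodes CHOP, read 10.94 and 10.77 at 6 h and 9.24 and 9.33 at 24 h. The proline-synthesis enzyme Aldh18a1 (-1.29), the arginine and lysine transporter Slc7a1 (-1.28), the asparagine synthetase Asns (-1.26), the pseudokinase Trib3 (-1.21) and the phosphatase subunit Ppp1r15a (-1.20) followed. Every transfer RNA synthetase gene of this list that passed fell, from Yars (-0.88) to Eprs (-0.42), while Nars and Mars1 did not pass. Atf4 itself fell by 0.43 (9.83 and 9.89 to 9.31 and 9.54). Slc7a11, the cystine carrier that NRF2 also induces, gave 0.20 and did not pass.

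The endoplasmic reticulum chaperones belong to the other arms of that stress response. Of 24, 4 fell and 1 rose, and the falls were 2 without Basal 6 h replicate 1 or without Basal 24 h replicate 1. The sensor Ern1 (-0.97) and the chaperone Hspa5 (-0.35) fell, while Hsp90b1 (0.18), Calr (-0.09) and Xbp1 (-0.06) did not pass. As shares of this list 16.7% fell and 4.17% rose, against 5.48% and 3.8% of all genes.

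The composite element that ATF4 binds with C/EBP partners reads TTGCATCA in its commonest form. It was held by the promoters of 6 of the 23 falling members that had one (26.1%) and of 8 of 34 measured members (23.5%), against 0.822% over all 15563 genes, 2.19% over the genes that fell and 0.493% over those that rose. The stretches of the falling genes Chac1, which encodes a glutathione-degrading enzyme (-1.10), and Nupr1, which encodes a stress-induced chromatin protein (-0.92), are shown because their matches lie upstream of the start.
Chac1, chr2:119351024-119351081, plus strand: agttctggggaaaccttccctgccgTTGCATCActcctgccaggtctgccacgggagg
Nupr1, chr7:126625548-126625605, minus strand: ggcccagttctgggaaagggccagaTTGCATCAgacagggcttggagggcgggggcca
Capitals mark the match, which was on the gene's own strand in both.

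Genes of glycolysis and of the hypoxia response rose together. Hypoxia-inducible factor, stabilised when oxygen is scarce, induces glucose uptake, the glycolytic enzymes, lactate export and its own prolyl hydroxylases. Of 35 measured members 24 rose, 3 fell, and the median was 0.565; with any single array left out, 19 to 23 rose. Aldoc, an aldolase, read 7.73 and 7.94 at 6 h and 9.74 and 9.69 at 24 h (3.69-fold higher, adjusted p = 1.65e-06, limma). Pdk1, the kinase that keeps pyruvate out of the mitochondria, read 8.56 and 8.48 at 6 h and 10.01 and 10.14 at 24 h (2.94-fold). Ankrd37 rose by 1.52, the phosphofructokinase Pfkl by 1.29, the mitophagy receptor Bnip3 by 1.15, and the prolyl hydroxylases Egln3 and Egln1 by 1.12 and 0.92.

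Along the pathway, the glucose carrier Slc2a1 rose by 0.59, hexokinase Hk2 by 0.70, Tpi1 by 0.71, Pgk1 by 0.39, Pgam1 by 0.57, Pkm by 0.57, Ldha by 0.41 and the lactate exporter Slc16a3 by 1.12. The growth factor gene Vegfa rose by 0.71. Hif1a itself gave 0.27 and did not pass, and neither did Hk1 (-0.12), Hk3 (-0.09) or Slc2a3 (-0.25). The 3 that fell were Eno2 (-0.71), Ndrg1 (-0.62) and Slc2a6 (-0.48); 1 fell without Basal 6 h replicate 1, Basal 24 h replicate 1 or either HRG 24 h replicate. Of 45 genes of the respiratory chain and ATP synthase, 3 rose (6.67%, against 3.8% of all genes) and 0 fell. Their median was 0.135, against 0.028 for all genes, and 40 lay above 0. The rises were 1 without Basal 6 h replicate 1 and 0 without any one of the other 3 basal arrays or either HRG 6 h replicate. Those that rose, Ndufa4, Sdhd and Ndufa8, did so by 0.45, 0.38 and 0.34.

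Targets of NRF2 also rose. NRF2, released from KEAP1 by oxidants, induces glutathione synthesis, thioredoxin recycling, NADPH production and detoxifying enzymes through the antioxidant response element. Of 35 measured members 23 rose, 0 fell, and the median was 0.603; with any single array left out, 19 to 23 rose. Nqo1 read 9.38 and 8.99 at 6 h and 10.93 and 11.43 at 24 h (1.99 ± 0.16, adjusted p = 2.01e-05, limma). The carbonyl reductase Cbr3 read 6.87 and 6.66 at 6 h and 7.94 and 8.63 at 24 h. Among glutathione genes, Gss rose by 1.02, the ligase subunits Gclc and Gclm by 0.74 and 0.45, the reductase Gsr by 0.60 and the transferases Gsta4, Gsta3, Gstm1 and Mgst1 by 1.29, 0.93, 0.86 and 0.69. The NADPH-producing enzymes Me1, Taldo1 and Pgd rose by 0.96, 0.88 and 0.55, the redox enzymes Srxn1 and Txnrd1 by 0.98 and 0.72, and the iron-binding protein Pir by 1.20.

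Hmox1, the haem oxygenase that NRF2 shares with other stress pathways, did not pass, at 13.55 and 13.50 then 13.41 and 13.60. Nfe2l2, which encodes NRF2, gave 0.11 and Sqstm1 gave -0.13, and neither passed. Keap1 rose by 0.39.

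The antioxidant response element was searched as TGACNNNGC. It was held by 8 of the 19 rising members with a promoter (42.1%) and by 11 of 29 measured members (37.9%), against 15.2% over all genes, 17.2% over the 609 risers and 17.0% over the 822 fallers; the difference in share was not tested. Stretches of 3 rising members whose match lies upstream are shown, with the match in capitals.
Pir, chrX:164269192-164269250, plus strand: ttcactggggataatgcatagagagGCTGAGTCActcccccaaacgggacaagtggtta
Txnrd1, chr10:82859089-82859147, plus strand: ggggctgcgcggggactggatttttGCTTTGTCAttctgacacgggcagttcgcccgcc
Gclm, chr3:122245398-122245456, plus strand: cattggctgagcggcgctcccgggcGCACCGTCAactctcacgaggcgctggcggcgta
All 3 matches are on the strand opposite to the gene.

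**Figure D2:**
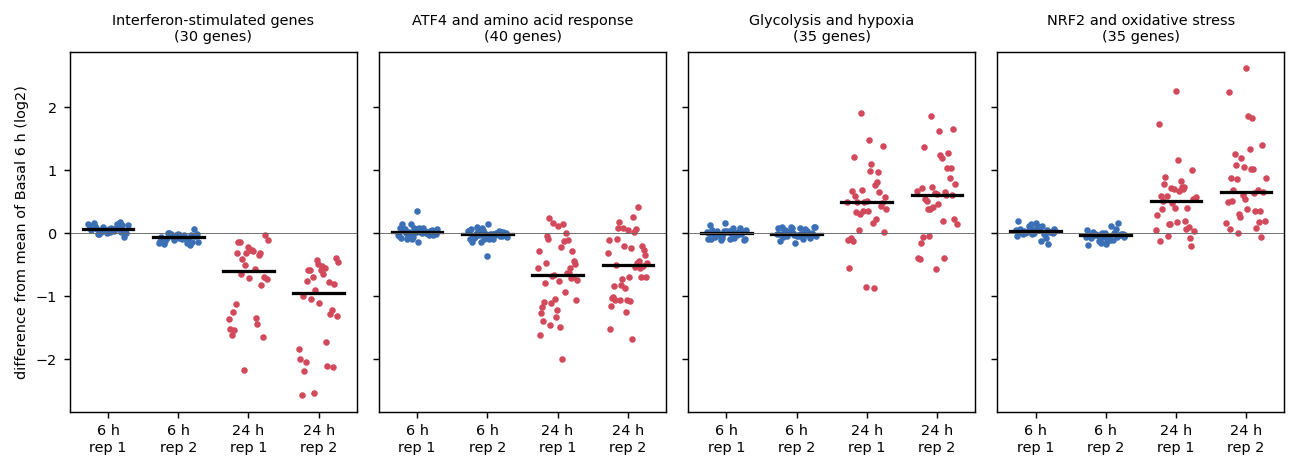
Each point is 1 measured member of a list on 1 basal array, as its difference from the mean of the 2 Basal 6 h arrays (log2); the black bar is the median of the list on that array. The interferon and ATF4 lists (medians of the 24 minus 6 h difference -0.773 and -0.578) lie below 0 on both 24 h arrays, and the glycolysis and NRF2 lists (0.565 and 0.603) above 0 on both.

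Some genes of sterol synthesis rose. Cells sense sterols in the endoplasmic reticulum and, when these fall, release SREBP2, which induces the enzymes of cholesterol synthesis. Of 22 measured members 9 rose, 0 fell, 13 did not pass, and 21 lay above 0, at a median of 0.35. Idi1, the isopentenyl isomerase, read 7.54 and 7.01 at 6 h and 8.78 and 8.21 at 24 h, with wide duplicates at both times (1.22 ± 0.20, adjusted p = 0.00197, limma). The squalene epoxidase Sqle rose by 1.08, Fdps by 0.96, the sterol carrier Stard4 by 0.88, the squalene synthase Fdft1 by 0.86, and Srebf2 itself by 0.53. Of 16 LXR targets and sterol efflux genes 2 rose and 4 fell, and 1 rose without Basal 6 h replicate 1 or either Basal 24 h replicate. Nr1h3, the sterol receptor LXR alpha, read 9.72 and 9.63 at 6 h and 8.63 and 8.62 at 24 h, and the exporter Abcg1 fell by 0.68. Abca1 (0.02) and Apoe (-0.04) did not pass. Scd1, the desaturase, fell 3.44-fold, from 10.69 and 10.64 to 9.05 and 8.72, while the desaturase Fads1 rose by 0.96.

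Among 24 eicosanoid genes 7 rose and 3 fell. Alox5, which makes leukotriene A4, read 9.01 and 8.98 at 6 h and 10.57 and 10.60 at 24 h (1.59 ± 0.09). The leukotriene receptor Cysltr1 rose by 1.07, the phospholipase Pla2g4a by 0.50, Lta4h by 0.41 and Ltc4s by 0.33. Pla2g15, a lysosomal phospholipase, rose by 0.69 and the thromboxane synthase Tbxas1 by 0.51. The prostaglandin synthases Hpgds (-0.77), Ptges (-0.54) and Ptges2 (-0.46) fell. Ptgs2, the inducible cyclooxygenase, gave -0.37 and did not pass.

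Most circadian clock genes that passed rose, and 1 fell. In the clock's feedback loop ARNTL and CLOCK drive the Per, Cry and Nr1d genes and the output factor Dbp, and PER and CRY proteins repress that drive. Of 19 measured, 8 rose and 1 fell. The one that fell was Arntl, at 9.34 and 9.28 at 6 h and 8.24 and 8.24 at 24 h (-1.07 ± 0.09, adjusted p = 2.33e-05, limma). Per3 read 7.71 and 7.98 at 6 h and 9.17 and 9.16 at 24 h (2.50-fold higher), Dbp rose by 1.24, Nr1d1 by 0.98, Tef by 0.90, Per2 by 0.86, Cry2 by 0.67, Nr1d2 by 0.63 and Cry1 by 0.51. Clock (-0.10) and Per1 (0.32) did not pass. Only 2 times were sampled, so no phase or period can be read from them.

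Of 25 identity genes of large peritoneal macrophages 4 rose and 3 fell, and 12 lay above 0 and 13 below. Gata6 read 10.61 and 10.59 at 6 h and 10.02 and 10.17 at 24 h (-0.50 ± 0.10, adjusted p = 0.00755, limma). The phosphatidylserine receptor Timd4 (-0.52) and the integrin Itga6 (-0.63) fell. The endothelin receptor gene Ednrb, by contrast, read 12.14 and 12.15 at 6 h and 13.18 and 13.29 at 24 h. Arg1, which breaks down arginine, rose by 0.71, and Nos2, which competes for the same substrate, by 0.77. Prg4 (-0.30), Alox15 (-0.31) and Vsig4 (0.21) did not pass. Of 21 genes of small or monocyte-derived macrophages, 8 fell, 1 rose and 12 did not pass, and 7 lay above 0. The falls were led by Ms4a4c (-1.68), Irf4 (-1.46) and Plac8 (-1.40), and the member that rose was Treml4. Among those that did not pass were Ccr2, Cd209a, Clec10a, Folr2, Lyve1 and F13a1. Without Basal 6 h replicate 1 or without Basal 24 h replicate 2, 5 of that list fell.

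Receptors for microbes and dying cells rose more often than they fell. Of 32, 8 rose and 4 fell; 5 rose without Basal 24 h replicate 2, and 2 fell without Basal 6 h replicate 1. Clec4n read 10.69 and 10.31 at 6 h and 12.36 and 12.51 at 24 h, and Clec7a (dectin-1) 10.33 and 10.09 then 11.53 and 11.49. Mertk, a receptor for the uptake of apoptotic cells, read 10.04 and 10.09 at 6 h and 10.85 and 10.93 at 24 h, and its bridging ligand Pros1 rose by 0.83. Its relative Axl fell by 0.95. Cd36 rose by 0.39, whereas Msr1 (0.10) and Mrc1 (0.22) did not pass. Of 42 lysosomal genes 6 rose and 3 fell, and 2 or 3 rose with any one of the 4 basal arrays left out. Lipa, the acid lipase, rose by 0.84 and the acid phosphatase Acp5 fell by 0.96. As shares of the lysosomal list 14.3% rose and 7.14% fell, against 3.8% and 5.48% of all genes.

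Several matrix proteases fell. Mmp3, which degrades matrix proteins, read 10.51 and 10.43 at 6 h and 8.19 and 8.45 at 24 h. Mmp9 (-1.31), the collagenase Mmp13 (-1.24), the inhibitor Timp1 (-1.10), Tgfbi (-1.01), the plasminogen activator Plau (-0.99) and Olfml3 (-0.70) also fell. Mmp8, Mmp19 and Mmp12 rose by 0.90, 0.70 and 0.58, so that 7 of the 30 matrix genes fell and 3 rose. Among 28 integrins and adhesion proteins 8 fell and 5 rose, with Itga4 at -1.22 and the collagen receptor Itga1 at 1.27. Over all genes 3.8% rose and 5.48% fell, and over the actin and focal adhesion list 9.38% did each. Of 32 actin and focal adhesion genes 3 rose and 3 fell, with 1 rise without Basal 24 h replicate 2 and 1 fall without Basal 24 h replicate 1, and Actb, at 14.07 and 14.09 then 14.01 and 14.03, did not pass.

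**Figure D3:**
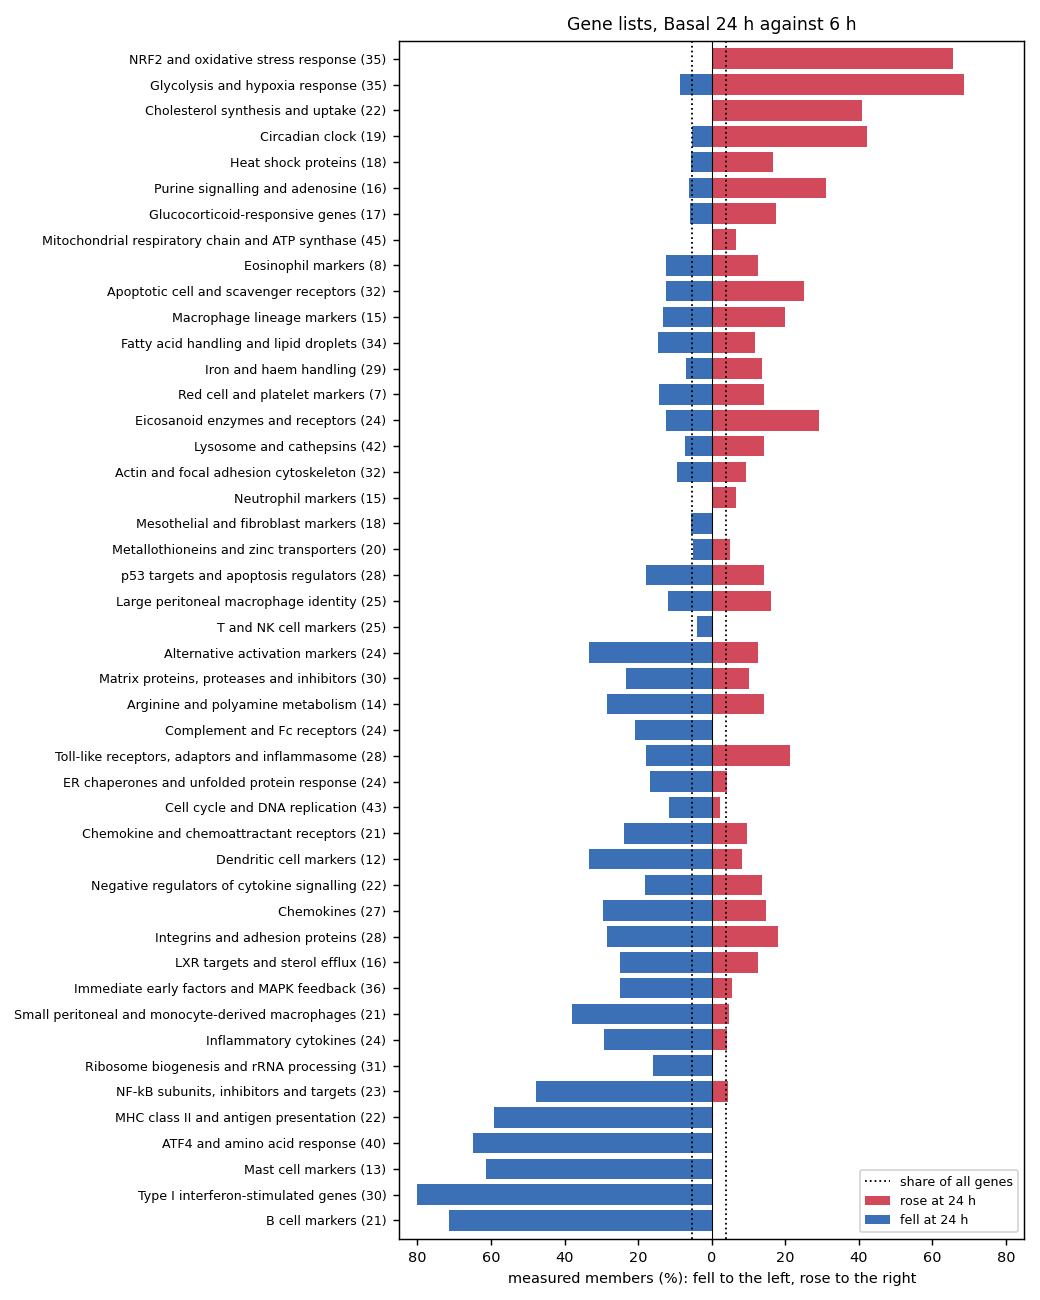
Percent of the measured members of each of 46 gene lists (number in brackets) that rose (red, to the right) or fell (blue, to the left) between 6 and 24 h, ordered by the list's median difference; dotted lines are the shares of all genes, 3.8% and 5.48%. The interferon list has 80.0% fallen and the glycolysis list 68.6% risen.

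Genes of antigen presentation and the markers of B cells and mast cells fell in many members. Of 22 genes of MHC class II, antigen processing and co-stimulation 13 fell and 0 rose, at a median of -0.46. H2-Aa, a class II chain, read 10.85 and 10.84 at 6 h and 9.78 and 9.12 at 24 h (-1.40 ± 0.16, adjusted p = 0.000258, limma). H2-Ob (-1.11), H2-Eb1 (-1.07), the invariant chain Cd74 (-1.05), H2-Ab1 (-0.92), Cd86 (-0.68) and the class II activator Ciita (-0.56) fell. B2m gave -0.02 and did not pass. B cells, which share the peritoneal cavity, carry the same class II genes. Of 21 B cell markers 15 fell and 0 rose, at a median of -0.777, and the sum of their linear signals was 10020 and 9868 at 6 h and 6893 and 6151 at 24 h. Ms4a1, which encodes CD20, read 9.52 and 9.54 at 6 h and 8.65 and 8.20 at 24 h, and Cd79a, a chain of the B cell receptor, 9.70 and 9.71 then 9.08 and 8.65. The part of these cells in the fall of the class II genes was not tested.

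Mast cell markers moved likewise. Of 13 measured, 8 fell and 0 rose, at a median of -0.653, and their summed signal was 11910 and 11210 at 6 h and 7110 and 8809 at 24 h; 5 fell without Basal 24 h replicate 1. Gata2 (-0.97), the proteases Mcpt4 (-0.79), Tpsab1 (-0.73) and Cma1 (-0.65) and the histidine decarboxylase Hdc (-0.60) fell, whereas Kit gave -0.40 and Fcer1a -0.08 and did not pass. Of 12 dendritic cell markers 4 fell and 1 rose; the one that rose was Clec9a, from 6.14 and 5.91 to 7.36 and 7.39. Markers of T and NK cells (1 of 25 fell), neutrophils (1 of 15 rose), eosinophils (1 of 8 rose and 1 fell) and mesothelium or fibroblasts (1 of 18 fell) passed in few members. Over all genes 3.8% rose and 5.48% fell. Of 15 macrophage lineage markers 3 rose and 2 fell, with 1 rise without Basal 6 h replicate 2 or either Basal 24 h replicate and 0 or 1 falls without any one array, and their summed signal was 86780 and 82460 at 6 h and 89840 and 90990 at 24 h. No marker list was used to correct another.

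Of 43 genes of the cell cycle and DNA replication 1 rose and 5 fell, and the falls were 2 without Basal 6 h replicate 1, Basal 6 h replicate 2 or Basal 24 h replicate 2, and 3 without Basal 24 h replicate 1. As shares of this list 2.33% rose and 11.6% fell, against 3.8% and 5.48% of all genes. Mki67, which marks cycling cells, read 8.37 and 8.15 at 6 h and 9.04 and 8.77 at 24 h and was the member that rose. Top2a (-0.07), Cdk1 (0.09) and Plk1 (-0.04) did not pass. Of 31 genes of ribosome biogenesis 5 fell and 29 lay below 0, at a median of -0.275. The falls were 1 without Basal 6 h replicate 1 or without Basal 24 h replicate 1, and 13 with the crossed replicate pairing. Among 28 p53 targets and apoptosis regulators, the growth-arrest genes Gadd45a (-1.40) and Gadd45b (-1.18) fell and the survival gene Mcl1 rose by 0.63; 5 of the 28 fell and 4 rose, and the rises were 2 without Basal 6 h replicate 2 and 1 without Basal 24 h replicate 2. Metallothionein and zinc transporter genes passed in 2 of 20, and heat shock genes in 4 of 18, of which 3 rose. Of the metallothionein and zinc list 5.0% rose and 5.0% fell, and of the heat shock list 16.7% rose and 5.56% fell. The shares of all genes, 3.8% and 5.48%, were close to each of these except the heat shock rises. Those rises rested on single arrays, and the heat shock median was 0.128 to 0.371 with any single array left out.

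In the lists not described above, several counts rested on single arrays. For comparison, 3.8% of all genes rose and 5.48% fell. The falls of the iron and haem (6.9%), purine signalling (6.25%) and glucocorticoid-responsive (5.88%) lists lay near that share. Of 24 alternative activation markers 3 rose and 8 fell, and 5 fell without Basal 6 h replicate 1. Of 24 complement and Fc receptor genes 0 rose and 5 fell, and the falls were 1 without Basal 6 h replicate 1 and 2 without Basal 6 h replicate 2 or Basal 24 h replicate 2. Of 34 fatty acid and lipid droplet genes 4 rose and 5 fell; 1 rose without Basal 6 h replicate 1 or Basal 24 h replicate 2, 2 rose without any one HRG array, 2 fell without Basal 24 h replicate 1, and 3 fell without Basal 6 h replicate 1, Basal 24 h replicate 2 or either HRG 24 h replicate. Of 22 negative regulators of cytokine signalling 3 rose and 4 fell, and 2 fell without Basal 6 h replicate 1 or Basal 24 h replicate 1; 1 rose without Basal 24 h replicate 1. Of 29 iron and haem genes 4 rose and 2 fell, and 2 rose without Basal 24 h replicate 2; 0 fell without Basal 6 h replicate 1 and 1 without any one of the other basal arrays. Of 14 arginine and polyamine genes 2 rose and 4 fell, the falls being 1 without Basal 6 h replicate 1 and 2 without Basal 24 h replicate 1. Of 16 purine signalling genes 5 rose and 1 fell, the ATP receptor gene P2rx7 (-0.76); the rises were 3 without Basal 6 h replicate 2 and 2 without Basal 24 h replicate 1. Of 17 glucocorticoid-responsive genes 3 rose and 1 fell, and 1 rose without Basal 6 h replicate 2 or Basal 24 h replicate 2. Of 7 red cell and platelet markers Ppbp rose and Alas2 fell.

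The same interval was also sampled in the 4 arrays with HRG, none of which enters the basal difference. They do enter its standard error, since the fit shares each gene's spread over all arrays. The calls in the 2 courses are therefore not independent. With HRG, 880 genes rose (4.41%) and 572 fell (2.87%) between 6 and 24 h, and the median difference over all genes was -0.020. Of the 758 genes that rose without HRG, 649 (85.6%) lay above 0 with it and 380 (50.1%) rose; of the 1093 that fell, 905 (82.8%) lay below 0 and 291 (26.6%) fell. Conversely, 43.2% of the genes that rose with HRG had risen without it, and 50.9% of those that fell with HRG had fallen without it. The test of the difference between the 2 time courses called 204 genes higher with HRG (1.02%) and 90 lower (0.451%). Single arrays moved these counts. The 204 were 104 without Basal 6 h replicate 1, 86 without Basal 24 h replicate 2, 79 and 50 without HRG 6 h replicates 1 and 2, and 28 and 107 without HRG 24 h replicates 1 and 2. The 90 were 139 and 42 without Basal 24 h replicates 1 and 2, 41 and 38 without HRG 6 h replicates 1 and 2, and 28 and 34 without HRG 24 h replicates 1 and 2. The 880 that rose with HRG were 390 and 397 without HRG 6 h replicates 1 and 2, and 402 and 473 without HRG 24 h replicates 1 and 2. The 572 that fell were 139, 279, 264 and 162 in the same order.

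With HRG 13 of the 30 interferon-stimulated genes fell, among them Rsad2 (-1.95) and Ifit1 (-1.56), and 0 members differed between the courses at an adjusted p under 0.05 (limma). That does not show equal courses. For Rsad2 the difference of courses was 0.40 ± 0.18, and for Gbp5 it was 1.13 ± 0.26 with an adjusted p of 0.0556 (limma). Of the glycolysis list 21 of 35 rose with HRG and 0 differed between the courses; Aldoc rose by 2.40 with HRG and Pdk1 by 1.47. Ch25h, the gene with the largest basal fall, fell by 2.50 with HRG, and Alox5 rose by 1.58.

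Many members of the NRF2 list did differ. With HRG 3 of 35 rose and 9 fell, and 17 members had a lower course with HRG than without. The basal difference enters this comparison with a minus sign. A list written with earlier results known, 23 of whose members rose without HRG, therefore favours lower courses. The size of that effect was not tested. Nqo1 read 9.51 and 9.59 at HRG 6 h and 8.70 and 8.82 at HRG 24 h, so that it fell with HRG by 0.79 where it had risen by 1.99 without (difference of courses -2.78, adjusted p = 0.000426, limma). Srxn1 read 11.56 and 11.56 at HRG 6 h and 11.01 and 11.12 at HRG 24 h, against 11.31 and 11.30 then 12.20 and 12.39 without it. Pir, Gclm, Gclc, Me1, Akr1b8 and Txnrd1 likewise fell with HRG. The count of 17 was 8 without HRG 24 h replicate 1, and 12 to 20 without any other single array.

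Some B cell and mast cell markers also had courses that differed. The same limit applies to them with the opposite sign, since many had fallen without HRG. With HRG 1 of the 21 B cell markers rose and 0 fell, and 12 had a higher course than without. Ms4a1 read 9.18 and 9.14 at HRG 6 h and 9.43 and 9.03 at HRG 24 h. That count of 12 rested on single arrays: it was 0 without HRG 6 h replicate 2 or without HRG 24 h replicate 1, 1 without HRG 6 h replicate 1 or without Basal 24 h replicate 2, and 4 without Basal 6 h replicate 1. Of the 13 mast cell markers 4 rose and 1 fell with HRG, and 7 had a higher course. Without HRG 6 h replicate 1 or HRG 24 h replicate 1 that count was 1, without HRG 6 h replicate 2 it was 2, and without Basal 6 h replicate 1 or Basal 24 h replicate 1 it was 3.

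Among single genes, the widest gaps between the courses after Nqo1 were those of Il1f9 (1.32 without HRG, -1.19 with it) and, in the other direction, of Ifitm6 and the complement gene C1qc. Ifitm6 read 9.01 and 9.03 then 8.80 and 8.36 without HRG, and 8.27 and 8.54 then 10.19 and 10.01 with it. C1qc read 10.41 and 10.32 then 10.70 and 9.92 without HRG, and 10.89 and 11.00 then 12.74 and 12.59 with it. Neither passed without HRG. Scd1, which fell by 1.78 without HRG, gave -0.35 with it and did not pass there.

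**Figure D4:**
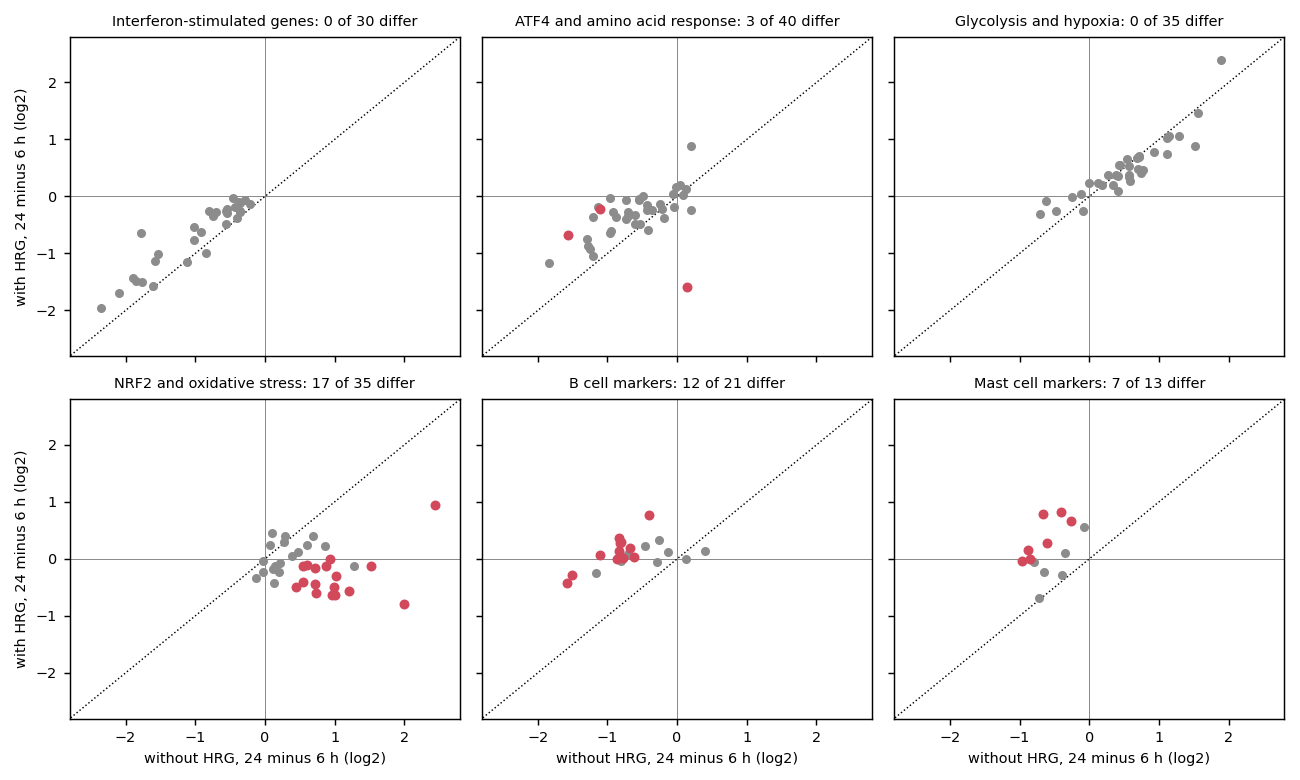
Difference between 24 and 6 h (log2) of each measured member of 6 lists, without HRG (horizontal axis) and with HRG (vertical axis); the dotted line marks equal courses and red points are members whose courses differed at an adjusted p under 0.05. Red points number 0 for the interferon and glycolysis lists, 3 for ATF4, 17 for NRF2, 12 for B cell and 7 for mast cell markers.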

How the data were processed

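Deposited log2 values from 8 Affymetrix arrays were used, which the authors made with Affymetrix Expression Console and RMA, per the submitters' processing notes; those notes also name limma, all with versions not given in the sources used here. RMA corrects background, normalises arrays to one another and summarises probes, so a shift common to all genes cannot be seen. The deposited values still differed between arrays, with lower quartiles of 5.846 to 6.001 and medians of 7.184 to 7.287. RNA (250 ng per array) was amplified with the Ambion WT Expression Kit, per the labels' protocols.

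Of 28853 rows, 21789 had 1 symbol in the platform annotation, 1621 several and 5443 none; the brightest row, by its mean on the 8 arrays, stood for each gene (999 genes had several). limma 3.58.1 (R 4.3.3) fitted the 4 groups over all 8 arrays, with 4 residual and 7.81 prior degrees of freedom; contrasts were 24 minus 6 h without HRG, the same with HRG, and their difference. The Benjamini-Hochberg adjustment ran over all 19938 genes. The small number of arrays, and their origin in pooled cells, limit the precision. The labels do not say whether replicate numbers pair samples, and they were not used as pairs.

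The 46 gene lists, the genes and the motifs were chosen with earlier results of these data known. Named genes are the 15 largest in each direction (without predicted, olfactory, small RNA and antigen receptor genes), up to 5 members of each list that passed, members with a defining role, a fixed set, and the 6 largest in each direction of the difference of courses; other members and the promoters shown were picked after their values were seen. Alternatives were a replicate block, trend and robust priors, renewed quantile normalization, median centring, a filter on dim genes, other row choices, a 1.5-fold minimum, only the arrays compared, and each array left out. RefSeq promoters (build GRCm38.p6) were matched by gene ID for 15563 genes, 2628 with several. In all, 7 motifs were searched, the others being GGNNTTTCC, TCACNCCAC, CACGTG and TGANTCA. TCACNCCAC was in 0 of 5 rising sterol synthesis genes with a promoter (1.39% of all genes). GGNNTTTCC was in 2 of 5 falling NF-kB genes (6.7% of all), and CACGTG in 2 of 7 rising clock genes (9.52% of all). TGANTCA was in 7 of 23 interferon-stimulated genes (30.4%, against 8.06% of all).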

Additional observations from a re-analysis of the deposited data

Results flagged for a closer look

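Results whose time course differed between the arrays without and with HRG (limma, adjusted p under 0.05) are listed here as the course with HRG minus the course without it, in log2 units, for the genes named by size and for lists with at least 5 such members. Of the genes that rose most without HRG, Nqo1 differed by -2.78, Acss2 by -1.74, Fam13a by -1.72, Ephx1 by -1.50 and Sort1 by -0.85. Of those that fell most, Fam171b differed by 1.27, Hcar2 by 1.13, Cd69 by 0.81 and Slc13a3 by 0.78. The basal difference enters these values with a minus sign. Choosing genes by a large basal difference therefore favours the opposite sign here, and the size of that effect was not tested. The largest lower courses besides were those of Il1f9 at -2.50, Treml4 at -1.96, Eid3 at -1.88, Pir at -1.77 and Slc6a9 at -1.74. The largest higher courses were those of Ifitm6 at 2.13, C1qc at 1.78, Adgre4 and Cd3g at 1.48 each, Mrgprb2 at 1.45 and Scd1 at 1.44.

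By list, the members that differed numbered 17 for NRF2, 12 for B cell markers, 7 for mast cell markers, 6 for small peritoneal and monocyte-derived macrophages, and 5 each for MHC class II and antigen presentation, for complement and Fc receptors, and for matrix proteins and proteases. Without HRG 24 h replicate 1 the NRF2 count was 8, the B cell count 0, the mast cell count 1, the complement count 1, the matrix count 3 and the MHC class II count 0; of the small macrophage list 5 members had a higher course, and 2 without that array. Other arrays moved these counts too: the MHC class II count was 0 without HRG 6 h replicate 2, 1 without HRG 24 h replicate 2, and 3 without Basal 6 h replicate 1, Basal 24 h replicate 2 or HRG 6 h replicate 1. The 5 of the small macrophage list were 2 without Basal 24 h replicate 2 or HRG 6 h replicate 2, and 3 without Basal 6 h replicate 1 or HRG 6 h replicate 1. The complement and matrix counts were each 3 without HRG 6 h replicate 2. Groups of 2 arrays allow no test for an outlying array.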

How the results depend on the processing

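Settings other than the one reported moved the counts as follows. With a 1.5-fold minimum 297 genes rose and 544 fell without HRG, and 367 rose and 221 fell with HRG. With each array's lower signal quartile entered as a covariate, chosen after seeing the data, 1149 rose without HRG, 1257 fell with HRG and 215 had a lower course. Trend and robust priors gave 392 higher and 155 lower courses. A renewed quantile normalization gave 1137 that rose and 1198 that fell without HRG, and 876 that fell with HRG. A fit of only the 4 arrays compared gave 514 rising and 786 falling genes without HRG, and 911 falling with HRG. With each array left out in turn, a lone array being assumed to vary like the other groups, the genes that rose without HRG numbered 373 to 684 and those that fell 600 to 1133. With HRG they numbered 390 to 985 and 139 to 695, and the higher and lower courses 28 to 265 and 28 to 139. The cause of these moves was not tested.

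The labels do not say whether replicate numbers pair the samples. The replicate 1 minus 2 differences of Basal 24 h correlated at -0.331, -0.283 and -0.201 with those of Basal 6 h, HRG 6 h and HRG 24 h, and the other group pairs at 0.267, 0.411 and 0.244. Not every correlation was above 0.1, the bar set for pairing, and the numbers were not used as pairs. The replicate block gave 751 rising and 1109 falling genes without HRG, 863 and 589 with HRG, and 261 higher and 101 lower courses. The crossed pairing, added after seeing the data, gave 1163 and 1581 without HRG, 1072 falling with HRG, and 424 higher and 180 lower courses. Of 286 named genes that passed, 91 did not pass in at least 1 setting run, and 0 turned their direction in any. Without the dimmest 30% of genes, 878 rose and 1241 fell without HRG.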

Other observations

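Values of 5 glycogen-related genes, which were in no list and were picked after their values were seen, are given here as single genes. Pygl, the phosphorylase that releases glucose from glycogen, read 9.82 and 9.69 at 6 h and 11.26 and 11.15 at 24 h (1.45 ± 0.10, adjusted p = 6.97e-06, limma). Gys1, the glycogen synthase, read 9.79 and 9.83 at 6 h and 10.96 and 11.19 at 24 h, and the phosphoglucomutase Pgm1 9.31 and 9.17 then 10.56 and 10.62. Each of these passed. The branching enzyme Gbe1 rose by 0.37, while Ugp2 gave 0.07 and did not pass. With HRG, Pygl read 10.11 and 10.18 at 6 h and 11.45 and 11.48 at 24 h.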
